A study of Mus musculus with 8 samples.

Results

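The comparison set p75NTR-positive cells of the newborn mouse liver at postnatal day 1 (P1) against mouse embryonic fibroblasts (MEF), across all genes measured. It rests on 2 of the 8 arrays of the series, 1 array a side, both on the same slide. A gene was compared where its probe was well above background, by the scanner software's own flag, on the brighter of both arrays. That held for 15327 of the 20062 genes with a named probe. The P1 cells came from newborn livers dissociated in collagenase and were sorted by flow cytometry as the fraction carrying the surface receptor p75NTR and lacking CD45 and Ter119, which mark leukocytes and red cells. The MEF were fibroblasts of embryonic skin grown in culture. An array of adult hepatic stellate cells (adult HSC, sorted as vitamin A-positive liver cells) and an array of purified mesenchymal stem cells of adult bone marrow (MSC) form a second pair on the same slide, and 4 arrays of p75NTR-positive fetal liver cells, from E11.5 to E17.5, were on another. Strain, sex, culture time and how many animals went into an array were not given in the sources used here.

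Hepatic stellate cells are the pericytes of the liver sinusoid. They lie between hepatocytes and sinusoidal endothelium, store vitamin A as retinyl esters in lipid droplets, and turn into collagen-producing myofibroblasts in injured or fibrotic liver. p75NTR, the low-affinity neurotrophin receptor encoded by Ngfr, is a surface marker of these cells and of their fetal precursors. MEF are a widely used culture of mixed embryonic connective tissue cells that divide quickly in serum.

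Each value is a level, the log2 of a probe's processed signal minus the log2 of its array's 75th percentile, so that a level of 0 is the 75th percentile itself. Differences are P1 minus MEF levels. With 1 array a side no spread between animals or cultures could be measured and no difference was tested. The spread that could be measured was between replicate spots of a probe within an array, with a median SD of 0.0845 on the P1 array (299 probes) and 0.0705 on the MEF array (300 probes), on the log2 scale. The scanner software's error for a P1 minus MEF difference had a median of 0.204 and a 95th percentile of 0.302. Both terms cover the measurement of 1 sample only. The arrays were alike in quality: 64.53% of spots were well above background on the P1 array and 64.37% on the MEF array, 0 spots were saturated on each, and the spike-in slopes were 0.9256 and 0.9231. The lowest level above background was -5.80 on the P1 array and -6.34 on the MEF array, and genes dimmer than that on both arrays were left out. Where 1 array was below background, a fold is given as a bound ("at least"). Counts of genes at least 4-fold apart use the measured difference, so a counted gene can have a bound under 4-fold.

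Of the 15327 genes, 13588 were above background on both arrays, 910 on the P1 array alone and 829 on the MEF array alone. The median difference was -0.05, and 67.6% of genes lay within 2-fold. At least 4-fold separated the arrays for 1486 genes that were higher in P1 cells (9.7% of the genes compared) and for 851 that were lower (5.55%). With normexp background correction in place of the scanner software's subtraction the counts were 475 higher and 224 lower, and 182 of the 243 named genes at least 4-fold apart that could be compared stayed so. Higher genes were 63.6% of those at least 4-fold apart. That split depended on the scaling: it was 51.2% with median normalization (1205 higher and 1150 lower) and 55.6% with quantile normalization (1301 and 1039). With median normalization the median over all genes was -0.451, and the list medians below shift with it. Where both arrays were above background, 151 were at least 16-fold higher and 82 at least 16-fold lower, and 47 and 17 were at least 64-fold apart. Of the 1486 higher genes 699 were below background on the MEF array, and of the 851 lower genes 427 were below background on the P1 array.

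**Figure D1:**
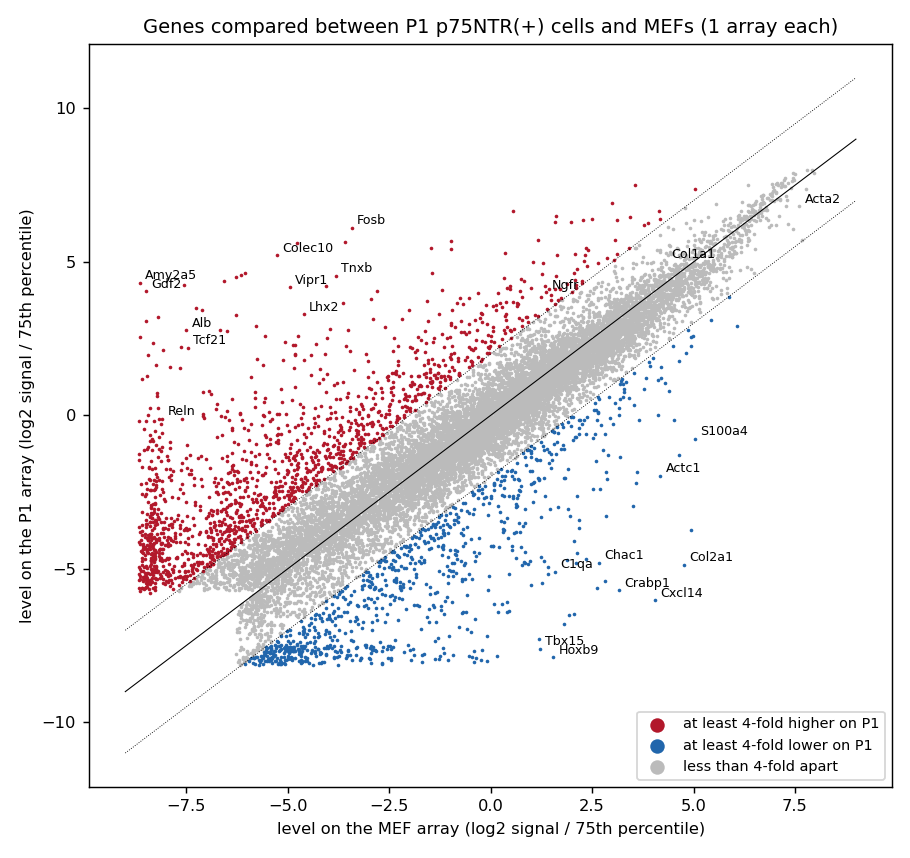
Level of each compared gene on the P1 array (vertical axis) against its level on the MEF array (horizontal axis), both as log2 of the signal over the array's 75th percentile. The solid line marks equal levels and the dotted lines 4-fold differences. Colec10, Fosb, Gdf2 and Amy2a5 lie far above the lines, Col2a1 and Cxcl14 far below them, and Acta2 and Col1a1 lie between them.

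The 15 largest positive differences among genes above background on both arrays lay between 7.32 and 10.78. They included the collectins Colec10 and Colec11, the immediate early gene Fosb, the bile acid receptor Nr1h4, the matrix protein tenascin X (Tnxb) and the LIM homeobox factor Lhx2. They also included Serpina1c, an alpha-1 antitrypsin of hepatocytes, the hemoglobin gene Hba-a2, and the digestive enzymes Ctrb1, Amy1 and Cpa1 of the exocrine pancreas. Art4, an ADP-ribosyltransferase, had levels of 4.57 in P1 cells and -6.15 in MEF, and Hpca, the calcium sensor hippocalcin, 1.85 in P1 cells and -5.74 in MEF. The probes of Hpca disagreed on size, with differences from 1.62 to 7.60. The 15 largest negative differences lay between -9.63 and -6.15. Col2a1, the collagen of cartilage, had levels of -4.87 in P1 cells and 4.76 in MEF, 793-fold lower. The tendon gene Tnmd, the homeobox gene Irx1, the carbonyl reductase Cbr2, the fetal muscle actin Actc1 and the macrophage genes Ctss, C1qa, C1qc, Mpeg1 and Lilrb4a were also among the 15.

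Markers of other cell types were measured first, since both samples are bulk RNA. In such samples fewer cells of a type and less RNA per cell cannot be told apart. On the P1 array the hepatocyte list stood out: 28 of 29 compared members were at least 4-fold higher. Of the 30 members with a probe, compared or not, 29 were above background on the P1 array and 10 on the MEF array. The summed signal was 107.8 times the 75th percentile in P1 cells and 3.75 times in MEF. Alb, serum albumin, had a level of 2.77 in P1 cells against -7.50, below background, in MEF. Ahsg, the plasma protein fetuin-A, was at least 1547-fold higher. The other 5 liver-derived arrays had hepatocyte sums between 14.8 and 1535. Of 20 erythroid and megakaryocyte genes, 11 were at least 4-fold higher and 3 lower, with sums of 24.37 in P1 cells and 13.46 in MEF. Hba-a1, alpha globin, was at 3.26 in P1 cells and below background in MEF, but Hba-a1 and Hba-a2 are near-identical, so their probes may share signal. Of 28 endothelial markers, 19 were higher and 1 lower, with sums of 96.2 in P1 cells and 23.1 in MEF. Clec4g and Gpr182, genes of the liver sinusoid, were at least 139-fold and at least 70.4-fold higher, and Plvap 158-fold. Pecam1 was near equal at -3.55 in P1 cells and -3.88 in MEF, and Stab1, a scavenger receptor of sinusoidal endothelium and macrophages, was 14.7-fold lower. The hepatic stellate cell list and the endothelial list cannot be fully separated, since stellate cells express genes of the endothelial list such as Gata4, and the part of each cell type in the results below was not tested.

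A signal of exocrine pancreas appeared on the P1 array. Of 26 compared genes of pancreatic acinar cells, 24 were at least 4-fold higher, with a median difference of 6.77. Their summed signal was 111.9 in P1 cells, against 0.84 in MEF and between 0.70 and 5.67 on the other 6 arrays. Amy2a5, a pancreatic amylase, had a level of 4.32 in P1 cells, 0.24 at E17.5 and no more than -5.18 on any other array. Ctrb1, chymotrypsinogen B, was at 4.20 in P1 cells and -4.06 in MEF, and Cpa1, carboxypeptidase A1, at 2.39 in P1 cells and -5.06 in MEF. Trypsinogen genes (Try4, Try5 and Gm5771) were at least 554-fold, 903-fold and 879-fold higher. These genes, like the amylases, have near-identical copies, so a value may belong to a copy. Of the 29 acinar genes with a probe, compared or not, 26 were above background on the P1 array and 12 on the MEF array.

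On the MEF array, skeletal muscle and macrophage genes stood out. Of 22 muscle genes, 18 were at least 4-fold lower in P1 cells, with sums of 8.78 in P1 cells and 76.4 in MEF, against 3.37 to 23.6 on the other arrays. Myh3, embryonic myosin heavy chain, was at least 229-fold lower, and Myog, the myogenic factor myogenin, was below background at -7.84 in P1 cells and 0.16 in MEF. The exception in the higher direction was Des, desmin, which stellate cells share with muscle. Of 29 leukocyte and Kupffer cell genes, 13 were lower and 5 higher, with sums of 20.1 in P1 cells and 31.8 in MEF. Ptprc, which encodes the CD45 used in the sort, was below background in P1 cells at -6.23 and at -4.40 in MEF. Tyrobp, an adaptor of myeloid receptors, was at -3.41 in P1 cells and 2.18 in MEF. The myeloid receptors Trem2 and Cx3cr1 were at least 302-fold and at least 127-fold lower, Ms4a7 at least 195-fold and Clec4d at least 107-fold. The 5 higher genes were the granulocyte genes S100a8 (67.2-fold), S100a9 (93.2-fold), Ngp and Ltf (at least 7.69-fold and 15.3-fold) and the B cell gene Cd79a (at least 7.42-fold). Of 20 bone, cartilage and fat genes, 6 were lower and 2 higher, with sums of 19.04 in P1 cells and 38.3 in MEF. Col10a1 of hypertrophic cartilage was at least 17.3-fold lower and Comp, a cartilage matrix protein, at least 28.9-fold.

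**Figure D2:**
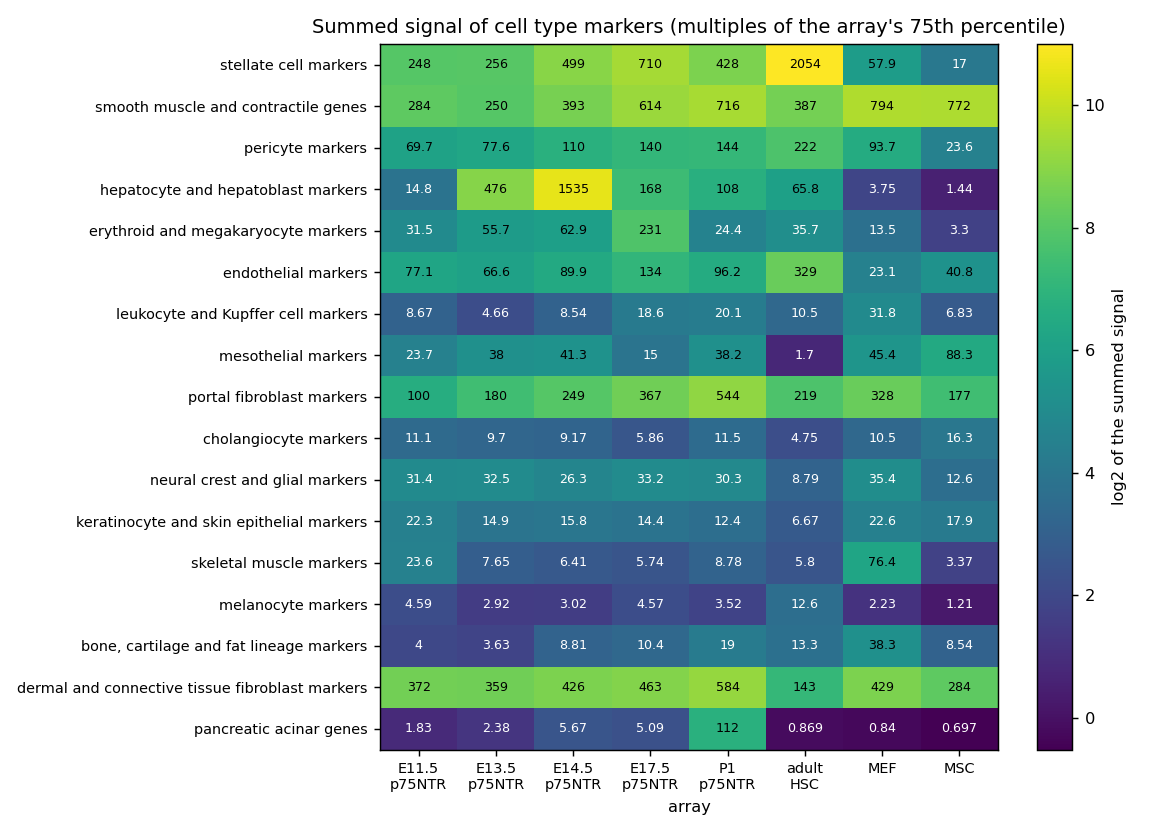
Summed signal of the compared cell type lists on each of the 8 arrays, in multiples of the array's 75th percentile, with color on a log2 scale. The pancreatic acinar row is bright on the P1 array alone (112), the skeletal muscle row is brightest on the MEF array (76.4), and the stellate row is brightest on the adult HSC array (2054).

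Stellate cell markers set the P1 cells apart from MEF. Of 20 compared markers, 16 were at least 4-fold higher in P1 cells and 0 lower, with a median difference of 3.16 beside -0.05 over all genes. Gfap, the other marker with a probe, was below background on both arrays and was not compared. Their summed signal was 428 in P1 cells and 57.9 in MEF. Ngfr, the gene of the sorted receptor, had a level of 4.01 in P1 cells and 1.37 in MEF, 6.22-fold higher (difference 2.64 ± 0.20, scanner error). The sort used its protein, and MEF were well above background for its transcript. Colec10, a collectin of innate immunity made by stellate cells, was at 5.22 in P1 cells and -5.26 in MEF, 1430.3-fold higher (10.48 ± 0.27), and Colec11, its partner in blood, at 5.60 in P1 cells and -4.77 in MEF, 1327-fold higher. Vipr1, a receptor for vasoactive intestinal peptide, was at 4.17 in P1 cells and -4.95 in MEF, with probes from 2.31 to 9.11. Reln, the secreted glycoprotein reelin, was at least 75.0-fold higher, and Adamtsl2, a microfibril-associated protein, 84.4-fold. Lrat, the enzyme that forms retinyl esters, was at -0.13 in P1 cells and below background in MEF, at least 73.7-fold higher. Des was at 0.69 in P1 cells and -1.71 in MEF. The 4 markers under 4-fold were Ecm1, Fcna, Pth1r and Nes, with differences from 0.74 to 1.78.

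Lrat and other retinoid genes showed 2 directions. Of 28 compared retinoid handling genes, 9 were at least 4-fold higher (32.1%) and 3 lower (10.7%) in P1 cells, beside 9.7% and 5.55% over all genes. Rarres2, the adipokine chemerin, was at 5.46 in P1 cells and -1.47 in MEF, 122-fold higher. Aldh1a1, which makes retinoic acid from retinaldehyde, was at 2.27 in P1 cells and -2.28 in MEF, 23.3-fold higher. Ttr, the plasma carrier transthyretin, is also a member of the hepatocyte list and was at least 95.6-fold higher. The 3 lower genes were Crabp1, a cellular retinoic acid-binding protein, at least 462-fold (below background in P1 cells, 3.16 in MEF), Cyp26b1, which degrades retinoic acid, 6.82-fold, and Adh7, an alcohol dehydrogenase, at least 7.34-fold. Crabp1 also belongs to the list of dermal fibroblast markers.

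Of the transcription factors of visceral mesenchyme more were higher than lower in P1 cells, and of those of skin, limb and skeleton more were lower than higher. Of 27 compared visceral factors, 17 were at least 4-fold higher and 1 lower, with a median difference of 3.08. The list also held nuclear receptors. Nr1h4, the farnesoid X receptor for bile acids, was at 2.92 in P1 cells and -5.78 in MEF, 417-fold higher. Its relative Nr1h5 was at least 414-fold higher. The hepatocyte list moved the same way (28 of 29 higher), and its part in the Nr1h4 value was not tested. Lhx2, which mice need to keep stellate cells quiescent, was at 3.30 in P1 cells and -4.60 in MEF, 238-fold higher (7.90 ± 0.25). Gata4, a zinc finger factor of heart, liver and gut mesenchyme, was at 2.73 in P1 cells and below background in MEF, at least 537-fold higher. Tcf21, a bHLH factor of the mesenchyme of inner organs, was at 2.20 in P1 cells and below background in MEF, at least 372-fold higher. Wt1, a factor of mesothelium and of the mesenchyme it gives rise to, was at 2.39 in P1 cells and -1.42 in MEF. The exception was Lhx9, below background in P1 cells and at -3.45 in MEF. Of 40 compared factors of skin, limb and skeleton, 19 were lower, 2 higher and 19 less than 4-fold apart, with a median of -1.62. Tbx15, a T-box factor of dorsal dermis and limb, was at least 128-fold lower, Pax1, a factor of the vertebral column, at least 58.4-fold, and Foxd1 at least 38.7-fold. Prrx2, a homeobox factor of limb and dermis, was at -0.16 in P1 cells and 4.53 in MEF. The skeletal muscle list moved the same way (18 of 22 lower), and its part was not tested. The 2 higher members were Tbx2, 16.7-fold, and Dlx6, at least 4.64-fold.

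Hox genes, which give cells of the body axis their position, divided by their place in the clusters. Of 37 compared Hox genes, 24 were at least 4-fold lower in P1 cells and 0 higher, with a median of -3.41. Low paralog numbers mark anterior genes and high numbers posterior ones. Among paralogs 6 to 13, 20 of 24 were lower (median -3.83), and among paralogs 1 to 5, 4 of 13 (median 0.62). The 4 lower genes of the anterior set lay in clusters C and D, where 2 of 2 compared genes were lower in each. In clusters A and B the anterior set had 0 of 5 and 0 of 4 lower, with medians of 1.65 and 0.78. Hoxb9 was below background at -7.88 in P1 cells and at 1.54 in MEF, at least 162-fold lower, and Hoxc9 was below background at -6.50 in P1 cells and at 1.94 in MEF, at least 213-fold lower. Hoxa10 and Hoxa11 were also below background in P1 cells, with levels of -0.48 and -0.42 in MEF. Under median normalization all differences lie lower by the same amount, and the contrast between the paralog sets does not depend on that shift.

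**Figure D3:**
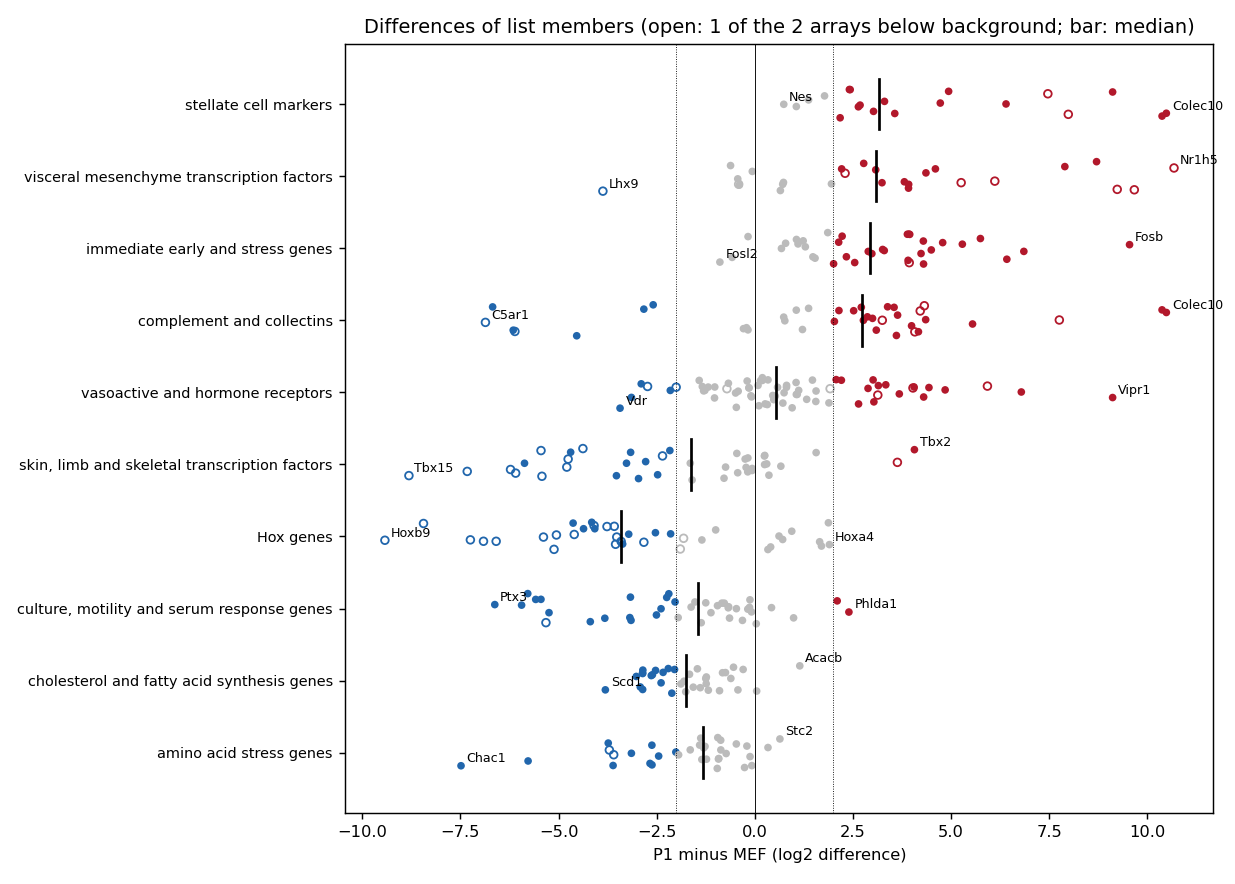
P1 minus MEF difference (log2) of each compared member of 10 lists, with open circles where 1 of both arrays was below background and a bar at the list's median. The dotted lines mark 4-fold. Stellate, visceral, immediate early and complement genes lie mostly to the right, and the medians of skin and limb factors, Hox, culture, cholesterol and amino acid stress genes to the left.

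Genes that answer to amino acid shortage were lower or near equal in P1 cells. Of 34 compared members, 12 were at least 4-fold lower and 0 higher, with a median of -1.33. Chac1, which degrades glutathione, was at -4.81 in P1 cells and 2.67 in MEF, 179-fold lower. Trib3, a pseudokinase, was at -2.20 in P1 cells and 3.58 in MEF, 54.8-fold lower, and Asns, asparagine synthetase, at 0.79 in P1 cells and 4.40 in MEF, 12.2-fold lower. The arginine transporter Slc7a3 was 13.3-fold lower and the hormone Fgf21 at least 11.7-fold. Atf4, the transcription factor that drives many of these genes, differed by -0.20. The letters TGATGNAA, a core form of the amino acid response element, were searched on both strands of RefSeq promoter windows (GRCm38.p6, 250 bases before to 50 after the gene start). They occurred in 29.4% of the windows of these genes (10 of 34) and in 3.97% of all 32851 windows. Of the 10 genes at least 4-fold lower that had a window, 5 held a match, and of the 19 with a smaller difference, 5 did. A match is a description of letters and not a binding site. The windows of the 3 lower genes described first are given with the match in capitals, for Chac1 (chr2:119350992-119351291, plus strand), Trib3 (chr2:152344011-152344310, minus strand) and Asns (chr6:7693160-7693459, minus strand).
Chac1: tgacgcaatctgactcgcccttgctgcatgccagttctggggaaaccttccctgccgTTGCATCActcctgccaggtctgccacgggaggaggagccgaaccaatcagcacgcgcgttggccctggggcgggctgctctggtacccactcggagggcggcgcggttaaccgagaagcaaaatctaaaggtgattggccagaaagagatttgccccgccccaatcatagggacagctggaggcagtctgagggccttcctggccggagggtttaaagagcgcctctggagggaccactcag
Trib3: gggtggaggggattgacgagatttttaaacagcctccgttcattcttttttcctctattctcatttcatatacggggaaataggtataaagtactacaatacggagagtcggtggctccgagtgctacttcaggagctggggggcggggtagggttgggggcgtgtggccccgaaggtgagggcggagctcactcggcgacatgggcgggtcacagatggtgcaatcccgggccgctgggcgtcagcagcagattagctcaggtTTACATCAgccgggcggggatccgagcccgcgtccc
Asns: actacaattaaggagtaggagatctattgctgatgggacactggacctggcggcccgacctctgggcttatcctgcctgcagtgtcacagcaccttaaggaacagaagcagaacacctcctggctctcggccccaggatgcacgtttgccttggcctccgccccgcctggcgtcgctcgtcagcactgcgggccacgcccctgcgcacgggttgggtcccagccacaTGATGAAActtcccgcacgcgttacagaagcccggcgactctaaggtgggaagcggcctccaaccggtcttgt

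The match began 193 bases before the gene start in Chac1 and 23 before it in Asns, and in Trib3 it began at base 14 after the start counted from 0. In Chac1 and Trib3 the printed strand carries the reverse form of the letters.

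Many cholesterol synthesis genes were lower as well. Of 35 compared genes of cholesterol and fatty acid synthesis, 15 were at least 4-fold lower and 0 higher, with a median of -1.76. Idi1, an isomerase of the isoprenoid pathway, was at -0.30 in P1 cells and 2.72 in MEF, 8.11-fold lower. The sterol enzymes Msmo1, Cyp51 and Fdps were 7.56-fold, 7.26-fold and 7.25-fold lower, and Scd1, a fatty acid desaturase, was at -3.48 in P1 cells and 0.32 in MEF. Fatty acid synthase (Fasn) was near equal, with a difference of 0.05. The letters TCACNCCAC, a core of the sterol regulatory element, were present in 1 of 31 windows (3.23%) and in 1.24% of all. Tissue of origin and culture cannot be told apart for these genes.

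Most immediate early and stress genes were higher in the sorted cells. Of 36 compared members, 24 were at least 4-fold higher and 0 lower, with a median of 2.94. Fosb, a component of the AP-1 factor, was at 6.12 in P1 cells and -3.42 in MEF, 747-fold higher (9.54 ± 0.21), and Fos at 5.43 in P1 cells and -0.99 in MEF, 85.6-fold higher. Hspa1a, an inducible heat shock protein, was at 4.05 in P1 cells and -2.80 in MEF. Atf3, a stress-induced factor, was 39.0-fold higher, and Zfp36, which promotes decay of cytokine mRNAs, was at 1.31 in P1 cells and -4.43 in MEF, 53.7-fold higher. The P1 cells were dissociated with collagenase and sorted, and the MEF were cultured, so cell type and handling cannot be told apart for these genes. CArG boxes, the serum response element core, were found in 6 of 40 windows of these genes and in 5 of 25 of smooth muscle genes, beside 1.63% of all windows. A gene can have several windows, and the matches lay in 3 of 31 early genes and 4 of 21 smooth muscle genes. Of the early genes, 2 of 21 higher and 1 of 10 others held a match. For smooth muscle genes these were 0 of 4 and 4 of 17. The cyclic AMP response element TGACGTCA was found in 7.5% of the windows of the early genes and in 1.79% of all. The window of Zfp36 (chr7:28379179-28379478, minus strand) is given with its CArG box in capitals, 58 bases before the start.
Zfp36: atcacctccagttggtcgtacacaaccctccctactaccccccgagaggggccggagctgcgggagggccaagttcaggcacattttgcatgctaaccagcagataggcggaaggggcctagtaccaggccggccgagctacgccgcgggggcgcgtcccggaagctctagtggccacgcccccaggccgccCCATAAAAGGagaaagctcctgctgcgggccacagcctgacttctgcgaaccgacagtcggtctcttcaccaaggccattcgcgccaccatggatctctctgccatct

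Genes of motile, cultured and serum-fed cells showed the opposite direction. Of 40 compared members, 17 were at least 4-fold lower in P1 cells and 2 higher, with a median of -1.45. Lgals3, galectin-3, was at -1.30 in P1 cells and 4.64 in MEF, 61.4-fold lower, and S100a4, a calcium-binding protein of motile fibroblasts, at -0.76 in P1 cells and 5.03 in MEF, 55.1-fold lower. Cdkn2a, the locus of the cell cycle inhibitors p16 and p19, was 47.9-fold lower, Ptx3, a secreted pentraxin, 98.6-fold, and Hmga2, a chromatin protein of growing embryonic cells, 43.65-fold. The higher members were Phlda1 (5.27-fold) and Tnfrsf11b, osteoprotegerin (4.28-fold). Cell cycle genes differed less. Of 53 compared members, 5 were at least 4-fold lower (9.43%, beside 5.55% over all genes) and 0 higher, with a median of -1.09. The 5 were the mitotic kinases Aurka (8.20-fold) and Plk1 (4.42-fold), the kinesin Kif20a, the ubiquitin-conjugating enzyme Ube2c and Cenpf. Cenpf was below background in P1 cells, with a bound of only 1.16-fold. Aurka was at -0.08 in P1 cells and 2.95 in MEF, and at -2.23 in adult HSC. The letters TTTGAA, the core of the cell cycle homology region, were found in 43.8% of the windows of this list and in 17.9% of all.

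**Figure D4:**
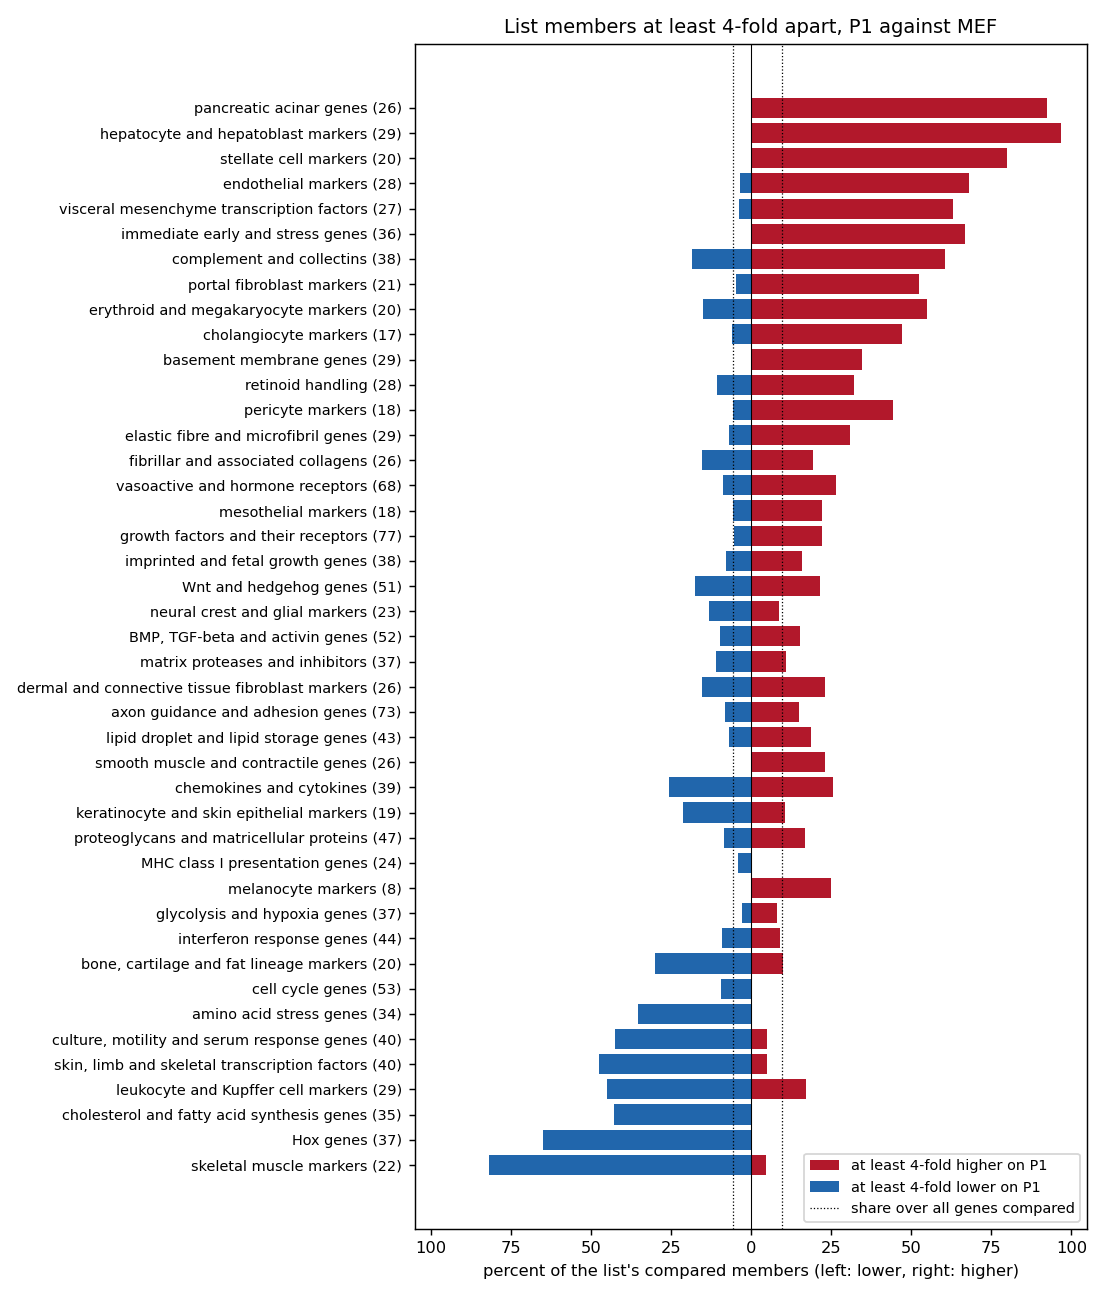
Share of compared members at least 4-fold higher (right) or lower (left) in P1 cells than in MEF, for each of the 43 lists, with the number compared in brackets and dotted lines at the shares over all genes (9.7% and 5.55%). Lists are ordered by median difference. Pancreatic acinar, hepatocyte and stellate lists are at the top, and Hox genes and skeletal muscle at the bottom.

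Collagen I was near equal on both arrays, while laminins, tenascin X and several minor collagens were higher in P1 cells. Col1a1, the main fibrillar collagen chain, was at 4.99 in P1 cells and 4.31 in MEF, 1.60-fold higher. Of 26 collagens, 5 were at least 4-fold higher (19.2%) and 4 lower (15.4%), beside 9.7% and 5.55% over all genes. Col14a1, which binds collagen fibrils, was at 5.70 in P1 cells and 1.18 in MEF, and Col6a6 was 19.2-fold higher. The others were Col25a1 (6.83-fold), Col13a1 (at least 5.28-fold) and Col27a1 (4.66-fold). Besides Col2a1, the lower collagens were Col8a1 (16.5-fold), Col11a1 (4.37-fold) and Col28a1. Col28a1 was below background in P1 cells, with a bound of only 1.18-fold. Of 29 basement membrane genes, 10 were higher and 0 lower, with a median of 1.28. Lama1 and Lama2, laminin alpha chains, were at 2.66 and 4.44 in P1 cells and at -1.20 and 0.74 in MEF. Lamc3 was at least 30.1-fold higher, Col4a4 19.96-fold and Frem1 10.4-fold. Of 29 elastic fibre and microfibril genes, 9 were higher (31.0%) and 2 lower (6.9%), beside 9.7% and 5.55% over all genes. Tnxb was at 4.54 in P1 cells and -3.81 in MEF, 326-fold higher, and Ltbp4, which binds latent TGF-beta, at 6.92 in P1 cells and 3.00 in MEF, 15.1-fold higher. The lower pair were Efemp1 (9.27-fold) and Fbln2, fibulin 2 (4.01-fold).

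Secreted matrix modifiers included genes in both directions. Of 47 proteoglycan and matricellular genes, 8 were higher and 4 lower (8.51%), and Sparcl1, a SPARC relative, was at 6.65 in P1 cells and 0.56 in MEF, 68.5-fold higher. The lower genes were Ccn5 (30.0-fold), Comp, Omd (7.17-fold) and Thbs1, thrombospondin 1 (5.05-fold). Spon1 was 28.2-fold higher and the hyaluronan synthase Has1 12.4-fold. Of 37 matrix proteases and inhibitors, 4 were higher and 4 lower (10.8% each). The higher share was near the 9.7% over all genes, and the lower share was above the 5.55%. The higher genes were the metalloproteases Adamts8 (47.2-fold, with probes from 1.52 to 5.56 on the log2 scale), Adamts2 (6.29-fold), Adamts1 (5.71-fold) and Mmp23 (4.32-fold). The lower genes were Plau, urokinase (15.2-fold), Timp1, an inhibitor of metalloproteases (2.02 in P1 cells and 4.81 in MEF, 6.88-fold), Mmp13 and Mmp9. Mmp13 and Mmp9 were below background in P1 cells, with bounds of 8.73-fold and 1.81-fold.

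Contractile genes were mostly near equal. Acta2, smooth muscle alpha actin and the classic marker of activated stellate cells, was at 6.81 in P1 cells and 7.60 in MEF, 1.74-fold lower. Of 26 contractile genes, 6 were at least 4-fold higher (23.1%, beside 9.7% over all genes) and 0 lower, with a median of 0.09. The 6 included Myh11, smooth muscle myosin (2.09 in P1 cells and -2.41 in MEF, 22.6-fold), the smooth muscle coactivator Myocd (12.7-fold), the LIM protein Pdlim3 (22.6-fold) and Itga8, an integrin chain (11.1-fold). Synpo2 was 6.94-fold higher by the probe taken, and its probes ran from -0.44 to 2.80. Of 18 pericyte markers, 8 were higher (44.4%) and 1 lower (5.56%, beside 5.55% over all genes). Abcc9, a subunit of potassium channels, was at 3.74 in P1 cells and -1.57 in MEF, 39.6-fold higher. Ndufa4l2 was 66.3-fold, Vtn, vitronectin, 46.7-fold, and Steap4 at least 79.5-fold higher. Vtn was highest at E14.5 (4.47), the array with the highest hepatocyte sum (1535), and was at 1.20 in adult HSC. The part of hepatocytes in its value was not tested. The lower marker was Tbx18, below background in P1 cells and at -2.04 in MEF. The PDGF receptors were close, with Pdgfrb 2.01-fold and Pdgfra 1.94-fold higher.

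Ligands and receptors of the BMP and TGF-beta family included the ligand with one of the largest bounds. Of 52 compared members, 8 were higher (15.4%) and 5 lower (9.62%), beside 9.7% and 5.55% over all genes, with a median of 0.45. Gdf2, the ligand BMP9, was at 4.04 in P1 cells and below background in MEF, at least 1330.0-fold higher, the third largest bound of all genes. Gdf10, a BMP relative, was at 4.16 in P1 cells and 0.40 in MEF, and Eng, endoglin, a co-receptor for BMP9, at 3.32 in P1 cells and -0.22 in MEF, 11.6-fold higher. Among the 5 lower genes were Inhbb, a chain of activin B (22.8-fold), Gdf5 (11.7-fold), Fst, the activin antagonist follistatin (5.36-fold), and Rgmb (at least 4.04-fold). Of 51 Wnt and hedgehog genes, 11 were higher (21.6%) and 9 lower (17.6%), beside 9.7% and 5.55% over all genes. Gli1, a transcription factor and target of hedgehog signalling, was at 3.09 in P1 cells and -0.73 in MEF, 14.1-fold higher. The Wnt antagonist Sfrp5 was at least 26.3-fold higher and its relative Sfrp2 7.88-fold lower, while Lgr5, a receptor for R-spondins, was 20.9-fold lower and the ligand Wnt10a at least 18.7-fold.

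Growth factor genes leaned to higher values in P1 cells. Of 77 compared members, 17 were at least 4-fold higher (22.1%, beside 9.7% over all genes) and 4 lower (5.19%, beside 5.55%). Igfbp1, an insulin-like growth factor binding protein that hepatocytes also make, was 65.2-fold higher. The neurotrophin receptor gene Ntrk3 was 19.4-fold higher and Fgf1 17.9-fold. The 4 lower genes were Fgf5 (at least 27.1-fold), Fgf21, Fgf7 (10.3-fold) and Igfbp2 (6.23-fold). Of 68 receptors for vasoactive agents and hormones, 18 were higher (26.5%) and 6 lower (8.82%). Adra2b, an adrenergic receptor, was at 1.97 in P1 cells and -4.82 in MEF, and the prostaglandin E receptor Ptger3, the adenosine receptor Adora2a and the prostaglandin D receptor Ptgdr were 28.8-fold, 21.6-fold and at least 21.1-fold higher. Ednrb, the endothelin B receptor, was at 1.07 in P1 cells and -1.94 in MEF, 8.07-fold higher. Of 73 axon guidance and adhesion genes, 11 were higher (15.1%, beside 9.7% over all genes) and 6 lower (8.22%, beside 5.55%). Among them were Robo2 (12.9-fold higher), E-cadherin (Cdh1, 14.3-fold higher) and Itgb6 (below background in P1 cells, with a bound of 1.82-fold).

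Of 43 lipid storage genes, 8 were higher (18.6%) and 3 lower (6.98%), beside 9.7% and 5.55% over all genes. Apoe, apolipoprotein E, was at 6.47 in P1 cells and 3.43 in MEF, 8.20-fold higher, and G0s2, an inhibitor of lipolysis, 13.7-fold higher. Apoc1 (110.3-fold) and Fabp1 (at least 352-fold) are also strong hepatocyte products. The lower genes were Cd36, a fatty acid transporter (30.2-fold), Fabp3 (6.69-fold) and Pparg, a nuclear receptor of fat storage (4.24-fold). Of 37 glycolysis and hypoxia genes, 3 were higher (8.11%) and 1 lower (2.7%), no more than the 9.7% and 5.55% over all genes. Epas1, the factor HIF-2 alpha, was 9.86-fold higher by the probe taken, with probes from 0.15 to 3.30, Hif3a was 11.7-fold and the kinase Pdk1 7.70-fold higher, and Ddit4 was 4.46-fold lower. Of 38 imprinted and fetal growth genes, 6 were higher (15.8%) and 3 lower (7.89%), beside 9.7% and 5.55% over all genes. Afp, alpha-fetoprotein of fetal hepatocytes, was 78.2-fold higher, and the lower genes were Hmga2, Igf2bp1 (9.28-fold) and Zdbf2 (5.27-fold).

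Most complement genes were higher and those of C1q lower. Of 38 compared complement and collectin genes, 23 were at least 4-fold higher and 7 lower, with a median of 2.74. Besides the collectins, Cfi, complement factor I, was at least 56.7-fold higher. Hepatocytes make most complement proteins, the hepatocyte list moved the same way (28 of 29 higher), and its part in these values was not tested. C1qa and C1qc, chains of C1q that macrophages make, were at -5.10 and -4.10 in P1 cells and at 1.57 and 2.06 in MEF, 102.5-fold and 71.3-fold lower. Of the leukocyte and Kupffer cell list, 13 of 29 genes were lower too, and its part in the C1q and chemokine values was not tested. Of 39 chemokine and cytokine genes, 10 were higher and 10 lower (25.6% each, beside 9.7% and 5.55% over all genes). Cxcl1, a neutrophil chemokine, was at 2.58 in P1 cells and -4.74 in MEF, 159.8-fold higher. Cxcl14, a chemokine of skin, was below background in P1 cells and at 4.04 in MEF, at least 913-fold lower and the largest bound in that direction. The chemokines Ccl9 and Ccl5 were 130.5-fold and 67.0-fold lower and Ccl4 at least 46.8-fold. Of 44 interferon response genes, 4 were higher (Gbp4, Ifitm1, Gbp6 and Irf1) and 4 lower (Zbp1, Ifi44, Oasl1 and Oas3). These were 9.09% each, beside 9.7% and 5.55% over all genes. Oas3 was below background in P1 cells, with a bound of 2.16-fold. Ifitm1 was at 5.22 in P1 cells and 1.65 in MEF. Of 24 MHC class I presentation genes, 0 were higher and 1 lower: Nlrc5, their transactivator, whose probes ran from -3.33 to 0.12.

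Of 21 portal fibroblast markers, 11 were at least 4-fold higher (52.4%, beside 9.7% over all genes) and 1 lower, with a median of 2.33 and sums of 543.7 in P1 cells and 328.1 in MEF. Clec3b (84.5-fold), Dpt, dermatopontin (28.2-fold), Pi16 (20.6-fold) and Entpd2 (17.4-fold) were higher, and Fbln2 was the lower one. Clec3b, Dpt and Pi16 also belong to the dermal fibroblast list, so the counts of the portal and dermal lists overlap. Of 26 dermal fibroblast markers, 6 were higher (23.1%) and 4 lower (15.4%, beside 5.55% over all genes), with sums of 583.6 in P1 cells and 429.1 in MEF. Its lower members were Crabp1, Tbx15, Ly6a (-1.34 in P1 cells and 3.18 in MEF) and Sfrp2. Of 18 mesothelial markers, 4 were higher (22.2%: Wt1, Krt8, Krt18 and Cdh1) and Pdpn, podoplanin, was lower (5.01-fold). Krt8, Krt18 and Cdh1 are also members of the hepatocyte list, and its part in these values was not tested. Of 17 compared cholangiocyte markers, 8 were higher (47.1%) and 1 lower, with Tff3 at least 16.3-fold and Onecut2 16.1-fold higher. Of the 20 with a probe, 16 were above background on the P1 array and 11 on the MEF array. Of 23 neural crest markers, 2 were higher, among them Ret (5.46-fold), and 3 lower (Uchl1, Foxd3 and Cdh19), and Sox10 was at -1.53 in P1 cells and -0.35 in MEF. Of 19 keratinocyte markers, 2 were higher (10.5%), Grhl3 and Lamb3, and 4 were lower (21.1%), beside 9.7% and 5.55% over all genes. The lower markers were Krt14, Perp, Tfap2c and Krt5, whose probes differed in sign. Tfap2c was below background in P1 cells, with a bound of only 1.33-fold. Of 8 melanocyte markers, 2 were higher (Ednrb and Kit) and 0 lower.

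The other pair on the slide, adult HSC against MSC, shares no array with P1 against MEF, and its genes were called by the same 4-fold rule. There 15.8% of 14450 genes were higher in adult HSC and 13.9% lower. Of the 1486 genes higher in P1 cells than in MEF, 613 (41.3%) were also higher in adult HSC than in MSC, which is 26.8% of the genes higher there, and 65 (4.37%) were lower. Of the 851 lower genes, 294 (34.5%) were also lower in adult HSC, which is 14.7% of the genes lower there, and 84 (9.87%) were higher. The arrays of both pairs share a slide and, on the liver side, dissociation and sorting. Stellate markers were higher in 20 of 21 compared genes in adult HSC and lower in 0. Posterior and anterior Hox genes together were lower in 16 of 28 and higher in 3. Immediate early genes were higher in 23 of 36 and lower in 1, and amino acid stress genes were lower in 18 of 34 and higher in 1.

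Several lists behaved otherwise in the second pair. Cell cycle genes were lower in 48 of 53 in adult HSC against MSC, beside 5 of 53 in P1 cells against MEF. Interferon response genes were higher in 36 of 43 and MHC class I genes in 18 of 24, beside 4 of 44 and 0 of 24. Acta2 was at -0.52 in adult HSC and 7.71 in MSC. The difference between the pairs was not tested, as each rests on 1 array a side. Either direction counted, 15.2% of genes were at least 4-fold apart for P1 cells against MEF, 27.0% for P1 cells against MSC, 25.9% for adult HSC against MEF, 21.1% for adult HSC against P1 cells and 18.9% for MSC against MEF, comparisons that share arrays with each other.

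**Figure D5:**
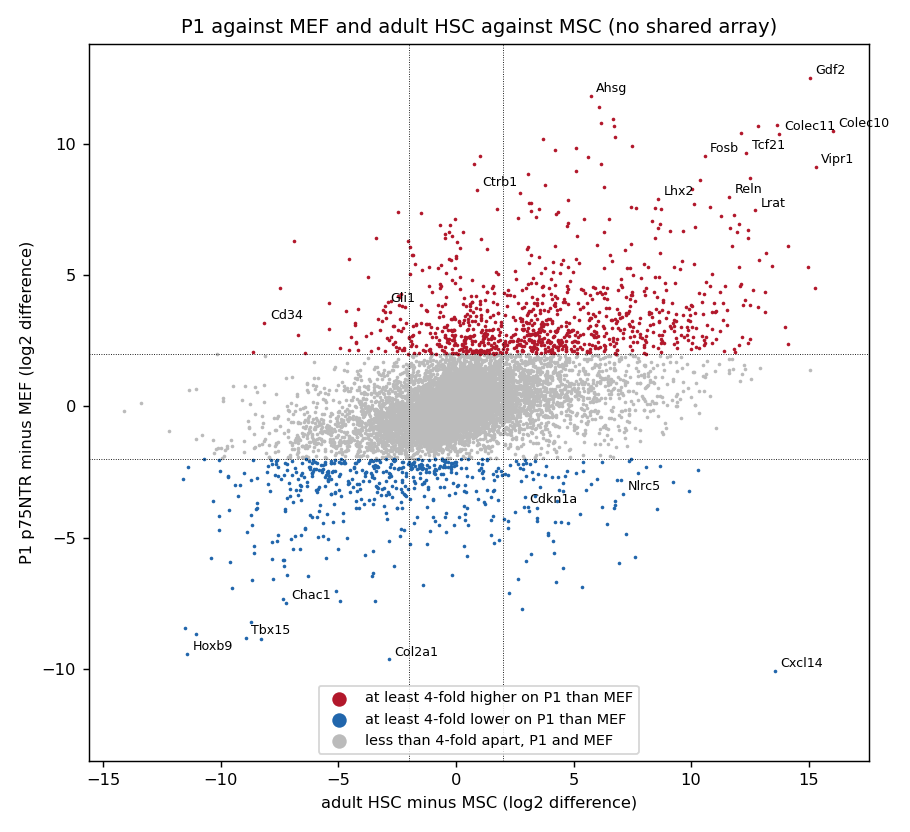
P1 minus MEF difference (vertical axis) against adult HSC minus MSC difference (horizontal axis), both log2, for genes compared in both pairs, with dotted lines at 4-fold. Colec10, Colec11, Gdf2, Tcf21 and Vipr1 lie at the upper right, Hoxb9, Tbx15 and Chac1 at the lower left, and Cd34 and Cxcl14 have opposite signs in the pairs.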

How the data were processed

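Gene expression was measured on 8 one-color (Cy3) Agilent mouse arrays, 1 per group, and the P1 and MEF arrays were compared. The deposited intensity values are processed spot signals made with Agilent's Feature Extraction software (version 11.5.1.1) by background subtraction and spatial detrending, with no normalization between arrays, per the file headers. Per the labels, the authors divided raw intensities by the 75th percentile and took log2. The deposited log2 table follows such values with medians between -4.48 and -3.55: on the P1 and MEF arrays 99.86% and 99.74% of probes lie within 0.02 of the scanner values after constant offsets of -0.12 and -0.13, whose origin is unknown. It served as an alternative.

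Here each level is log2 signal minus the log2 75th percentile of the non-control spots. Spots marked as outliers were dropped (192 on the P1 array, 216 on the MEF array) and spots of a probe averaged. Probes were named by transcript accession in a RefSeq table (26581 of 39429 probes), and for a gene the probe with the highest mean over 8 arrays was taken. Of 3950 genes with more than 1 probe, 995 had probes that differed in sign, among them 25 of 369 that were at least 4-fold apart. A bound uses the lowest signal above background on the dim array, or the dim probe's own signal where that is higher. The normexp alternative, 1 of 9, used median spot signals in place of the planned mean signals. The array was designed on mm9, so no gene positions are given beyond the RefSeq windows.

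No test was made, as each group has 1 array. Computation used Python 3.11.15, pandas 2.3.3, R 4.3.3 and limma 3.58.1 (normexp) and was checked on simulated data. The comparison, the 43 lists (1486 genes, 1338 compared) and the naming rule were chosen with earlier results of these data known, and the motifs after values were seen. Named were the 15 highest and 15 lowest genes, the 10 highest and 10 lowest bounds, the 5 list members with the largest difference per list, every member of a count of 5 or fewer, and 12 fixed genes. A few genes picked by this rule are left out of the text. Ecm1, Fcna, Pth1r, Nes, Gfap, Atf4 and Fasn, and the genes with opposite signs in the closing section, were added after their values were seen.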

Additional observations from a re-analysis of the deposited data

How the results depend on the processing

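The counts of 1486 higher and 851 lower genes changed by more than 1.5 times under 2 of 9 alternatives. With normexp background correction (offset 50) they were 475 and 224, and with genes above background on both arrays alone 787 and 424, where fewer genes are compared. The cause of the normexp change was not tested. The median difference of -0.05 was -0.451 after median normalization, and 0.161 without a filter, which keeps genes dim on both arrays. Under median, quantile and no-filter settings, the mean of all probes, the authors' deposited table, values raised to the lowest signal above background, and outlier spots kept, the counts lay between 1205 and 1705 higher and between 619 and 1150 lower. Of 251 named genes at least 4-fold apart, 177 stayed so in each alternative that compares all genes (the both-arrays filter left aside), and 0 named values changed direction. Of 774 list counts under the alternatives, 685 were within 1.5 times the count reported. Signal over background limits the bounds: 1234 higher and 621 lower genes were at least 4-fold apart when counted at their bound. No paired analysis was possible because each group has 1 array.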

Other observations

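Some genes moved in opposite directions in the pairs P1 against MEF and adult HSC against MSC while above background on all 4 arrays. Cd34, a sialomucin of endothelium and stromal progenitors, had levels of 5.26 in P1 cells and 2.08 in MEF, but -3.05 in adult HSC and 5.10 in MSC. The hedgehog target Gli1 was at 3.09 in P1 cells and -0.73 in MEF, and at -4.65 in adult HSC and -1.62 in MSC. Gfra2, a receptor subunit for neurturin, followed the same order, with 3.33 in P1 cells and -0.24 in MEF, and -5.05 in adult HSC and -2.04 in MSC. Cdkn1a, the cell cycle inhibitor p21, was at -0.16 in P1 cells and 3.67 in MEF, and at 2.35 in adult HSC and -0.53 in MSC. Efemp1, a fibulin, was at -1.72 in P1 cells and 1.495 in MEF, and at 4.72 in adult HSC and 0.16 in MSC.

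Cxcl14 was below background in P1 cells and at 4.04 in MEF, and at 4.91 in adult HSC and below background in MSC. Pdlim3 was at 3.67 in P1 cells and -0.83 in MEF, below background in adult HSC and at -0.60 in MSC. Wt1, in contrast, moved the same way in both pairs. It was at 2.39 in P1 cells and -1.42 in MEF, and at -3.79 in adult HSC and -5.98 in MSC. None of these differences was tested.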
